A study of Mus musculus with 24 samples.

Results

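The genotype by diet interaction in female mouse liver asks, for each gene, whether a high-fat diet moves its RNA level differently in mice without the Cyp2b enzymes than in wild type. It is (null HFD minus null ND) minus (WT HFD minus WT ND) on the log2 scale, so a value above 0 means that the diet difference is more positive in the null, and a value below 0 that it is more negative there. It uses 12 of the 24 libraries of the study, all of those from females, in 4 groups of 3. The groups are C57BL/6 females of wild type (WT) on a normal chow diet (ND), WT on a high-fat diet (HFD, 60% fat), mice lacking Cyp2b9, Cyp2b10 and Cyp2b13 (null) on ND, and null on HFD, each fed for 10 weeks. The labels give no ages. Liver RNA was taken with Trizol and made into libraries with an NEB Next Ultra kit, and the values are read counts per gene symbol.

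The Cyp2b enzymes are cytochrome P450 monooxygenases of the endoplasmic reticulum. They oxidise drugs, steroids and polyunsaturated fatty acids (PUFA), and the nuclear receptor CAR is a known regulator of Cyp2b10. On a high-fat diet the liver takes up and stores more fat, and synthesis, oxidation and export of lipids are regulated by insulin, by the receptor PPAR-alpha and by the circadian clock, which also follows the time of feeding.

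Library totals ran from 2005120 to 2661836 counts, which is shallow, and 11830 genes passed the filter on low counts. In 6 of the 12 libraries the genotype field contradicts the title, and the titles were followed because they give both genotype and diet. The labels do not say whether the 3 libraries of a group came from separate animals, and every p-value here reflects only how far these libraries scatter, which may be technical. Deviations from the group means had 1 leading axis with 38.6% of their variance. WT ND 1, WT HFD 1, null ND 2, null ND 3 and null HFD 2 lay on one side of it, and mitochondrially encoded genes took 13.96% of the counts in WT ND 1, 8.54% in WT HFD 1 and 3.85% to 7.17% in the others. All 16 hepatocyte markers passed the filter. Of 24 lymphocyte and neutrophil markers only Ptprc passed (average log2 CPM 3.41), and of 24 red cell, adipose and pancreas markers 8 did, among them the elastase genes Cela1 (4.18) and Cela2a (3.41). The T and B cell genes Trac, Trbc2, Ighm and Igkc, the neutrophil gene Ly6g and the pancreatic genes Prss2, Try4, Cela3b, Cpa1, Amy2a5, Ins1, Ins2 and Gcg are listed at 0 in all 12 libraries. So are genes that liver expresses, such as Apoc2, Apoc4, Gstp1, Angptl4 and Prodh, so a 0 in this table does not show that a transcript was absent.

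The deleted genes followed the titles. Cyp2b13 had 0 counts in all 6 null libraries, where 3 counts over a group correspond to 0.428 CPM (counts scaled to library size) on ND and 0.407 CPM on HFD, and 565 to 1138 counts in the WT libraries. Its interaction is therefore undefined. Cyp2b9 had 788 to 1245 counts in WT, 5, 6 and 17 counts in the null ND libraries and 0, 2 and 4 counts in the null HFD libraries. These few null counts gave Cyp2b9 an interaction of -2.01 ± 0.735 (log2, SE, n = 3 per group), with an adjusted p = 1 in edgeR, and -1.32 without null ND 3. Counts of Cyp2b10 were low even in WT, at 14 to 97 per library, and were 0 to 17 in the null, with an interaction of -1.85 ± 1.65, which was -0.41 without WT HFD 3, -1.08 without null ND 3 and -5.37 without null HFD 2. The 3 genes lie side by side on the plus strand of chromosome 7 (GRCm38), Cyp2b10 at chr7:25897620-25926624, Cyp2b13 at chr7:26061497-26096197 and Cyp2b9 at chr7:26173411-26210661. Reads of such close paralogues can be split or dropped in counting, so single values of Cyp2a, Cyp2b, Cyp3a and Mup genes are uncertain.

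No gene passed the test of the interaction at an adjusted p of 0.05 in edgeR's quasi-likelihood fit, in which the smallest adjusted p was 0.344. At an unadjusted p below 0.05 there were 342 genes (2.89%), 159 above 0 (1.34%) and 183 below 0 (1.55%), and there were 575 without WT ND 1 and 546 without null ND 1. The share of 2.89% is smaller than the fraction of 0.05 expected with no interaction in any gene. Genes at that level are therefore given as values and not as findings. DESeq2 on the same genes called 11 (Rgs16, Prom1, Rassf4, 8430408G22Rik, Dbp, B930025P03Rik, Dock6, Angptl8, Arrdc3, Scd1 and Tsc22d3). In limma voom with library weights 0 were called, with 865 at an unadjusted p below 0.05, and the smallest adjusted p was 0.0509, just over the threshold. Without the low-count filter edgeR called 23 of 24203. The named genes among those 23 were Prom1, Dock6, Tsc22d3, Angptl8, Ppp1r3b, Rassf4, Arrdc3, Dbp, Scd1 and Txnip. The median 95% interval reached 0.962 on the log2 scale to either side, 0.689 for genes at an average log2 CPM of 8 and over and 1.12 for those at 2 to 5. These widths describe the typical gene at this depth and spread, and single genes had narrower or wider intervals.

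Across genes, the estimated diet difference in the null was only loosely related to that in WT. The 2 differences share no library, and over the 11830 genes their Pearson correlation was 0.131 and their Spearman correlation 0.109. Their signs were opposite in 46.5% of genes. Among the 3960 genes at an average log2 CPM of 5 or more, r was 0.137 and opposite signs made up 46.0%. These points share libraries and scaling and are genes, not replicates, so the values describe these tables. Few diet differences were large against their error, with 2 genes passing in WT and 0 in the null. The median interaction was 0.286 in size, against a median 95% half-width of 0.962. Error in the estimates lowers such a correlation and mixes signs, so a low r does not show that the genotypes responded differently. How much of it is error was not tested. Of the 342 genes at an unadjusted p below 0.05, 316 had diet differences of opposite sign in the genotypes, which the choice of genes by a large difference favours.

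**Figure D1:**
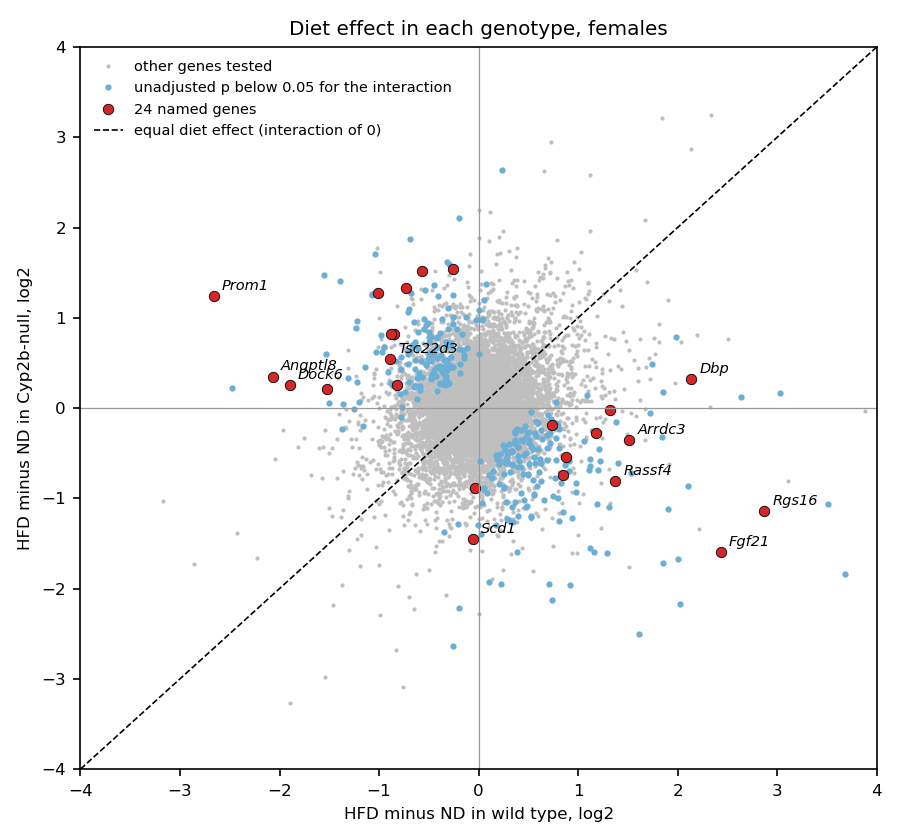
HFD minus ND in the null (vertical axis, log2) against HFD minus ND in WT (horizontal axis, log2) for each gene tested, from 3 libraries per group. Blue points have an unadjusted p below 0.05 for the interaction, red points are the 24 named genes, and the dashed line marks equal diet differences; 21 of the 24 lie where the signs are opposite.

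The 12 genes with the smallest p in each direction are named here. Prom1, a pentaspan membrane protein of apical membranes and a biliary progenitor marker, had the smallest p of all (chromosome 5, minus strand, chr5:43993620-44102032). Its level was 10.7, 13.5 and 20.2 CPM in WT ND, 2.32, 2.50 and 2.06 CPM in WT HFD, 1.30, 1.35 and 1.62 CPM in null ND, and 3.13, 5.09 and 2.26 CPM in null HFD. The WT ND libraries lay above the other 9, and the WT HFD and null HFD libraries overlapped. These levels rest on few reads. The counts were 23, 27 and 48 in WT ND, 6, 6 and 5 in WT HFD, 3, 3 and 4 in null ND, and 8, 11 and 6 in null HFD. The interaction was 3.90 ± 0.663 (adjusted p = 0.344 in edgeR, 0.00963 in DESeq2), made of a diet difference of -2.66 in WT and 1.24 in the null. The other biliary markers that passed the filter did not share it: of 5 tested, Prom1 alone had an unadjusted p below 0.05, and the list's median interaction was -0.07 (-0.17 to 0.11 over the libraries left out).

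Dock6, a guanine nucleotide exchange factor for Rac1 and Cdc42, and Angptl8, a hepatokine that inhibits lipoprotein lipase after feeding, followed the same pattern. Dock6 stood at 273, 320.4 and 359 CPM in WT ND, 118, 72.9 and 64.7 CPM in WT HFD, 109.8, 81.7 and 123 CPM in null ND, and 169.8, 122 and 83.3 CPM in null HFD. Its interaction was 2.15 ± 0.397 (adjusted p = 0.407 in edgeR). Angptl8 stood at 219, 306 and 313 CPM in WT ND, 108, 52.1 and 40.0 CPM in WT HFD, 93.3, 57.9 and 98.3 CPM in null ND, and 144, 98.1 and 75.4 CPM in null HFD. For both genes the WT ND libraries were the 3 highest of the 12 and the other groups overlapped. Angptl8's interaction was 2.42 ± 0.498 (adjusted p = 0.407 in edgeR), and without WT HFD 1 it was 2.96 and passed (adjusted p = 0.0442).

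Tsc22d3 (GILZ), a glucocorticoid-induced leucine zipper protein, was also highest in WT ND. Its levels were 135, 105 and 86.1 CPM in WT ND, 49.0, 63.7 and 63.5 CPM in WT HFD, 37.8, 34.6 and 44.1 CPM in null ND, and 57.1, 57.8 and 54.3 CPM in null HFD. The WT ND libraries were the highest, the null ND libraries the lowest, and the HFD groups overlapped. The interaction was 1.43 ± 0.291 (adjusted p = 0.407 in edgeR). The list of glucocorticoid receptor targets, which includes Tsc22d3, had 10 of 22 above 0 and 12 below 0.

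Dbp and Rgs16 had the reverse pattern, with WT ND lowest. Dbp, a PAR bZIP transcription factor driven by the clock, stood at 25.9, 44.9 and 23.1 CPM in WT ND, 168, 89.5 and 154 CPM in WT HFD, 191, 187 and 234 CPM in null ND, and 225, 237 and 299.8 CPM in null HFD. The WT ND libraries lay below the other 9 and the WT HFD libraries below all 6 null libraries. Its interaction was -1.82 ± 0.389 (adjusted p = 0.407 in edgeR), from 2.14 in WT and 0.32 in the null. Rgs16, a regulator of G protein signalling whose liver RNA is known to follow feeding time, stood at 23.2, 47.9 and 34.4 CPM in WT ND, 132, 170.3 and 469 CPM in WT HFD, 357, 600.5 and 752 CPM in null ND, and 262, 375 and 138 CPM in null HFD. The HFD groups covered the same range, and the interaction was -4.02 ± 0.748 (adjusted p = 0.407 in edgeR).

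Rassf4, a Ras-association domain protein, and Arrdc3, an alpha-arrestin that acts in receptor trafficking, were likewise lowest in WT ND. Rassf4 stood at 82.4, 63.9 and 65.5 CPM in WT ND, 138, 165 and 246 CPM in WT HFD, 249, 244 and 249 CPM in null ND, and 128, 214 and 81.1 CPM in null HFD, with an interaction of -2.19 ± 0.424 (adjusted p = 0.407 in edgeR). One null HFD library lay within the WT ND range. Arrdc3 stood at 55.1, 86.8 and 87.3 CPM in WT ND, 207, 257 and 193 CPM in WT HFD, 321, 235 and 259 CPM in null ND, and 315, 173 and 149.7 CPM in null HFD. The 3 groups other than WT ND overlapped, and the interaction was -1.87 ± 0.391 (adjusted p = 0.407 in edgeR).

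Scd1 was the abundant gene among the 9 with an adjusted p under 0.5, and differed from the rest in which group stood apart. Its product, stearoyl-CoA desaturase, introduces the double bond of oleate and palmitoleate. Its level was 4334, 4083 and 4325 CPM in WT ND, 4155, 4415 and 3680.1 CPM in WT HFD, 8700.3, 5088 and 6086 CPM in null ND, and 2359, 2185 and 2729.7 CPM in null HFD. The WT groups overlapped, all null ND libraries lay above them and all null HFD libraries below them. The interaction was -1.39 ± 0.300 (adjusted p = 0.407 in edgeR), from a diet difference of -0.06 in WT and -1.45 in the null. With a term for the side of the leading axis on which each library lay, chosen after seeing the data, Scd1 (-1.44) and Arrdc3 (-2.03) were the 2 genes that passed (adjusted p = 0.0352 for each).

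**Figure D2:**
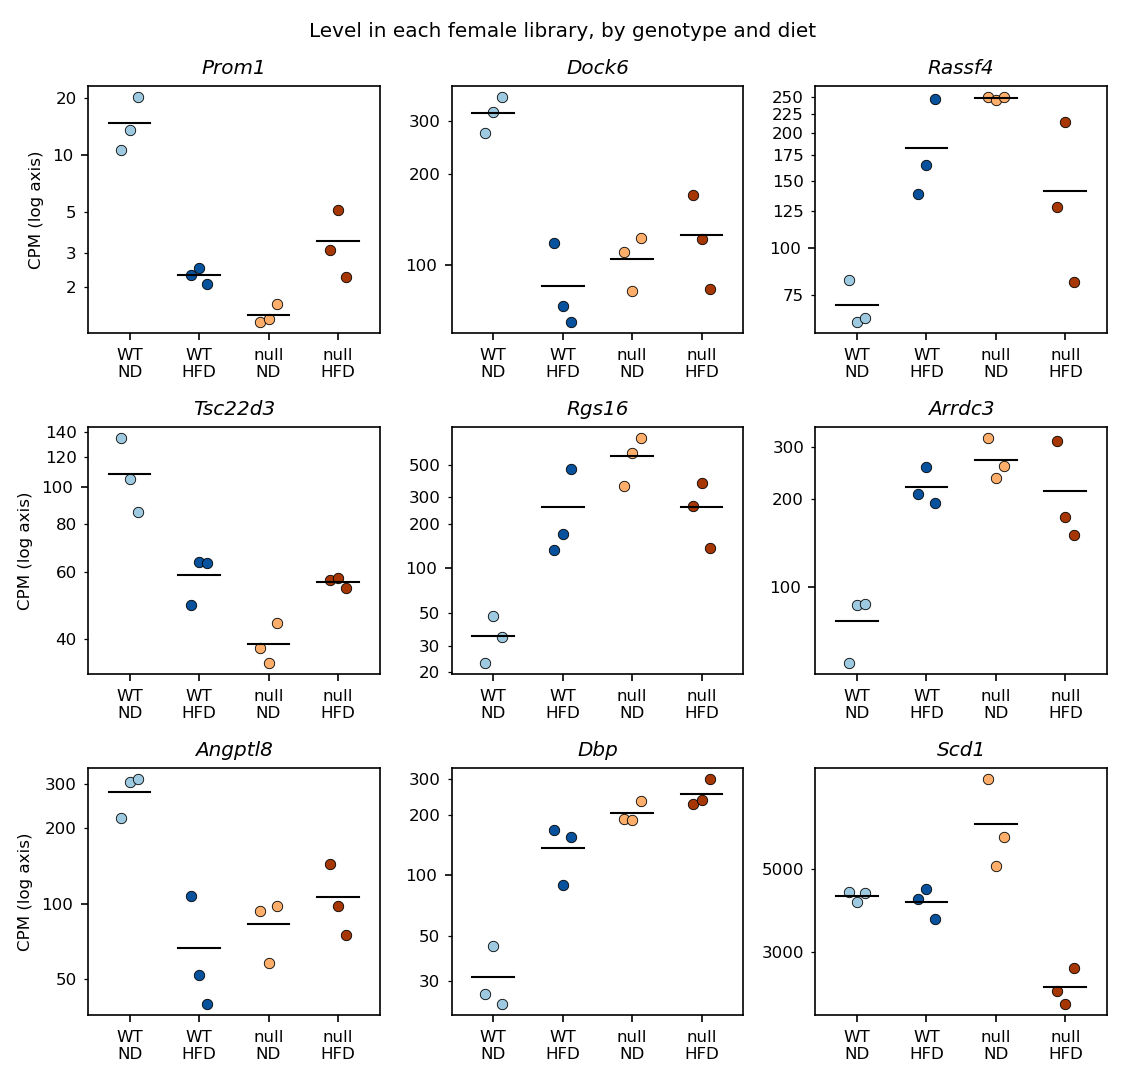
Level in CPM (log axes that differ between panels) of the 9 named genes with an adjusted p under 0.5, 1 point per library and a bar at the mean of 3, by genotype and diet. The WT ND libraries stand apart for 7 of these genes, Rassf4 has a null HFD library in the WT ND range, and for Scd1 the null HFD libraries lie below the other 9.

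The remaining named genes had adjusted p = 1 in edgeR with the low-count filter and are given as values. Me1, malic enzyme and a source of NADPH for fatty acid synthesis, repeated the order of groups seen for Scd1, with 111 ± 9.04 CPM in WT ND, 108 ± 1.89 in WT HFD, 172 ± 17.8 in null ND and 93.1 ± 7.80 in null HFD (SD, n = 3), and an interaction of -0.84 ± 0.241. Fgf21, a fasting and stress hormone made by hepatocytes, had only 1, 2 and 1 counts in WT ND (0.463, 0.998 and 0.42 CPM). It was 1.16, 7.08 and 2.47 CPM in WT HFD, 2.17, 9.88 and 12.9 CPM in null ND, and 3.52, 3.24 and 1.51 CPM in null HFD. Its interaction of -4.02 ± 1.15 rests on these low values, and the groups other than WT ND overlapped. The cholesterol handling genes Nceh1, a cholesteryl ester hydrolase, and Npc1, a lysosomal cholesterol transporter, were lowest in WT ND. Npc1 stood at 76.7 ± 2.27 CPM there, 128 ± 18.2 in WT HFD, 146 ± 20.4 in null ND and 128 ± 13.2 in null HFD (SD, n = 3), with an interaction of -0.93 ± 0.260. Nceh1 had -1.45 ± 0.362.

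Ppp1r3b, a subunit that targets protein phosphatase 1 to glycogen, stood at 206, 236 and 239.8 CPM in WT ND against 49.9 to 167 CPM over the other 9 libraries, with an interaction of 1.67 ± 0.478. Without the filter it passed in edgeR (1.69, adjusted p = 0.0012). Ror1, a Wnt5a receptor, had 2.29 ± 0.597, Zfp516, a zinc finger protein, 2.09 ± 0.586, Zfp770 2.06 ± 0.628, Acot11, an acyl-CoA thioesterase, 1.79 ± 0.521, Arhgap24, a GTPase-activating protein, 1.70 ± 0.501, and Mcm9, a helicase of DNA repair, 1.07 ± 0.310. Gapdh had 1.73 ± 0.513, but it stood at only 4.53 to 32.4 CPM and has many near-identical pseudogene copies, so its value is uncertain. Below 0 were Angptl2, an angiopoietin-like protein (-1.59 ± 0.442), Tgfbr3, the TGF-beta co-receptor betaglycan (-1.43 ± 0.394), and Tgm1, a transglutaminase (-1.34 ± 0.370). Several of these were measured at under 20 CPM in most libraries.

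WT ND was the group farthest from the mean of the other 3 in 16 of the 24 named genes, and in 14 its 3 libraries lay all above or all below the other 9. Null ND was the farthest in 4, null HFD in 3 and WT HFD in 1 (Mcm9). Some group was separate in this way in 19 of the 24, against 447 of all genes tested (3.78%), a difference that the choice of genes by their interaction brings with it. Among all 342 genes at an unadjusted p below 0.05, WT ND was farthest in 38.6%, null ND in 36.5%, null HFD in 16.7% and WT HFD in 8.19%. Over the 11830 genes the shares were 28.9%, 28.2%, 26.5% and 16.3%.

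**Figure D3:**
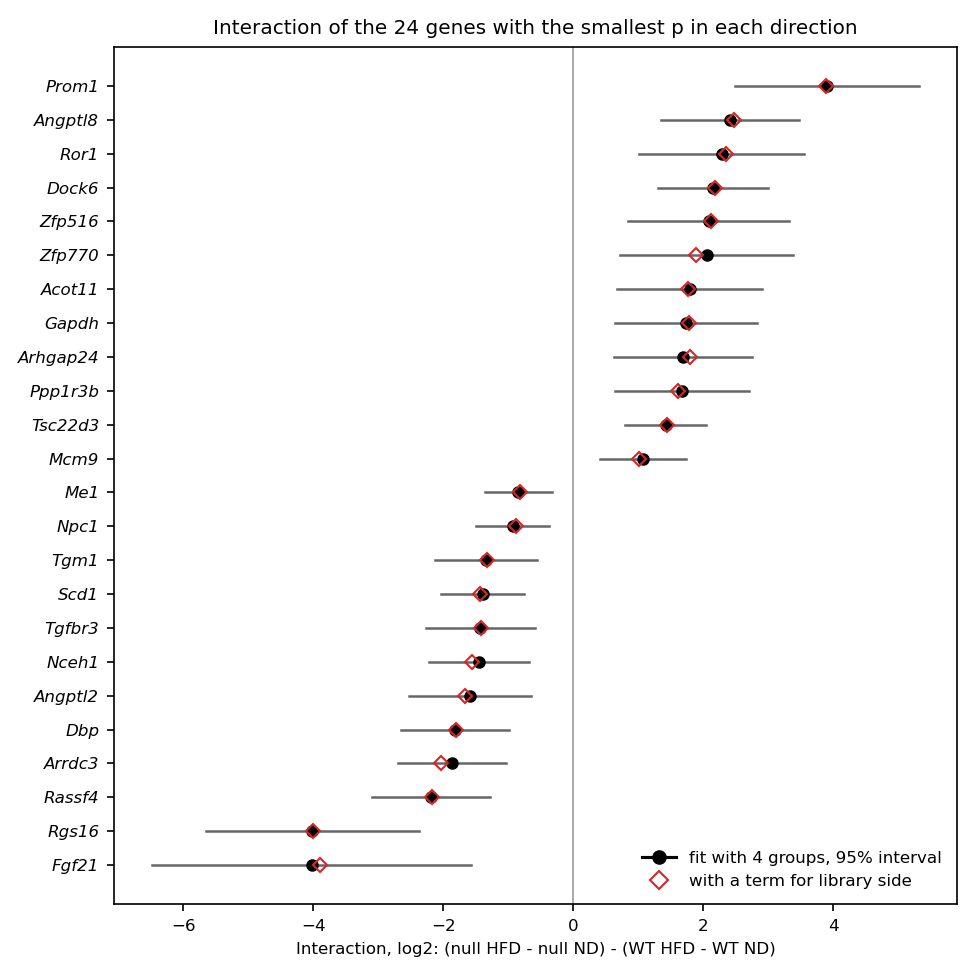
Interaction (log2, horizontal axis) of the 24 named genes with its 95% interval from the fit of 4 groups of 3 libraries (black), and the estimate with the added term for library side (red diamonds). Every estimate with the term lies within the interval of the fit without it, and the intervals of Rgs16 and Fgf21 are the widest.

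Genotype differences on chow share the WT ND and null ND libraries with the interaction, so the 2 are not independent and are only set side by side. Null minus WT passed on ND for 15 genes (0.127% of those tested) and on HFD for 2 (Cyp2b9 and Cyp2b13, 0.0169%), and HFD minus ND passed in WT for 2 (Dock6 and Dbp, 0.0169%) and in the null for 0 genes (0%, with 568, or 4.8%, at an unadjusted p below 0.05 in edgeR). Apart from Cyp2b9 and Cyp2b13, the genes called on ND were Prom1 (-3.33, with an interaction of 3.90), Dock6 (-1.60 and 2.15), Tsc22d3 (-1.48 and 1.43), Rassf4 (1.81 and -2.19), Rgs16 (4.02 and -4.02), Arrdc3 (1.83 and -1.87), Dbp (2.71 and -1.82), Nceh1 (1.54 and -1.45) and 5 more. These were Slc30a10, a manganese exporter (-1.46 and 0.55), the clock gene Per3 (2.58 and -1.19), Cyp2a4, a steroid hydroxylase beside the deleted cluster (1.64 and -0.67), Hexim1, an inhibitor of P-TEFb (-1.21 and 0.97), and Nrep (2.07 and -1.26). Slc30a10 stood at 69.9, 52.4 and 47.9 CPM in WT ND, 22.7 to 38.7 in WT HFD, 19.5 to 21.4 in null ND and 10.9 to 17.6 in null HFD, so diet and genotype differences went the same way and its interaction did not reach an unadjusted p of 0.05. Cyp2a4 was above all 6 WT libraries (305 to 690.4 CPM) in all 6 null libraries (1033 to 1473 CPM), on either diet.

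Several leading genes overlap another gene on the opposite strand, and for some of them the counts rose and fell with those of that partner. No source used here says whether the counting used strand or which gene models it used. Where exons overlap, reads of such partners cannot be told apart without strand. Whether shared reads give the counts that move together was not tested. Angptl8 (chr9:21835510-21837347, plus strand) lies inside Dock6 (chr9:21799860-21852635, minus strand), with 0 exonic bases in common in the GENCODE annotation of GRCm38. Dock6 counts spanned 157 to 855 over the 12 libraries, a 5.45-fold range, while the ratio of Angptl8 to Dock6 counts stayed between 0.618 and 0.956.

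A steady ratio was also seen for Rassf4 (chr6:116633008-116673952, minus strand) and the gene inside it that the table lists as 8430408G22Rik (current symbol Depp1, a FOXO target), again with 0 exonic bases in common. Their count ratio was 0.881 to 1.17 while Rassf4 counts ran from 128 to 616, and 8430408G22Rik had an interaction of -2.02 ± 0.440 (adjusted p = 0.438 in edgeR). Txnip, an alpha-arrestin that limits glucose uptake, lies within the antisense transcript Gm15441 with 606 exonic bases in common. Txnip counts ran from 85 to 865, the ratio of Gm15441 to Txnip was 0.863 to 1.13, and the interactions were -1.72 ± 0.569 for Txnip and -1.80 ± 0.556 for Gm15441. Sphk2, which overlaps the end of Dbp by 539 exonic bases, behaved differently: its ratio to Dbp ran from 0.579 to 3.21, and its interaction was -0.94 ± 0.373 (unadjusted p = 0.0236 in edgeR). Further partners were 3110002H16Rik (current symbol Rmc1) with Npc1, at a ratio of 0.758 to 1.27, Gm16984 with the enoyl-CoA isomerase Eci2, at 0.448 to 0.759, and Thra with the clock repressor Nr1d1, at 0.424 to 1.04. Other pairs, at low counts, varied more although they share exonic bases. Among them were Asf1a with Mcm9 (1748 bases, ratio 0.273 to 0.931) and Fam151a with Acot11 (1263 bases, 0.435 to 3.17). Iffo1 with Gapdh (68 bases) ran from 0.262 to 2.09. Partner genes were looked at after their values were seen.

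**Figure D4:**
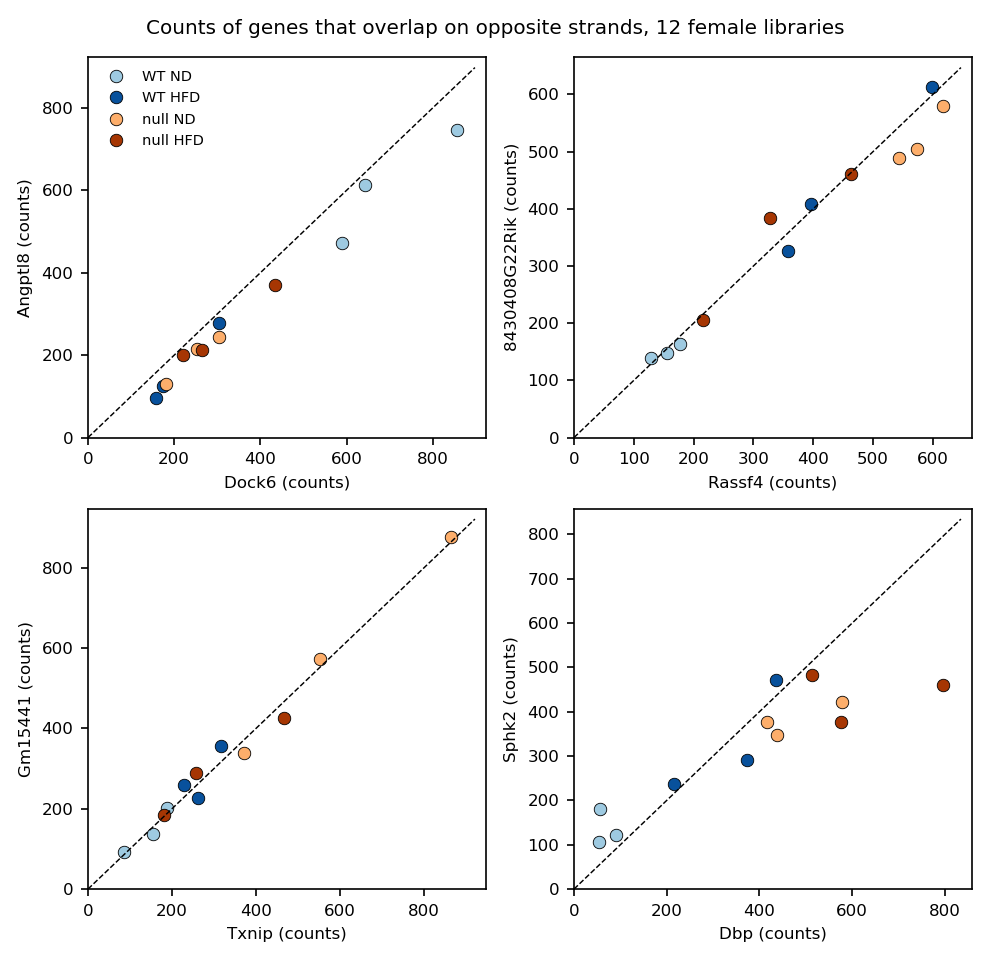
Read counts of 4 pairs of genes that overlap on opposite strands, 1 point per library (12 in each panel), with a dashed line at equal counts. Rassf4 with 8430408G22Rik and Txnip with Gm15441 lie along the line, Angptl8 lies below Dock6 at a steady ratio, and Dbp and Sphk2 part from each other.

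Gene lists were read by their counts and medians beside those of all genes, of which 6083 were above 0 and 5747 below, with a median of 0.01. The lists were written with earlier results of these data known, and some hold genes already named above. Their shares beside those of all genes are therefore descriptions, were not tested, and support no enrichment. No member of any list passed at an adjusted p of 0.05 in the edgeR fit with the low-count filter and no further term. Many medians moved with single libraries, and those that moved by over 1.5 times are given with their list or as a range. Fatty acid and triglyceride synthesis had 20 of 25 tested genes below 0 and a median of -0.37. Scd1, Me1 and Lpin2, a phosphatidate phosphatase (-1.08 ± 0.380), were below 0 at an unadjusted p under 0.05 (12% against 1.55% of all genes). No gene above 0 reached that level. The list's summed level was 7575 to 8694 CPM in WT ND, 7344 to 8459 in WT HFD, 9150.4 to 14248 in null ND and 6360.3 to 6563 in null HFD. Scd1 alone gave 4083 to 4334 CPM of this in WT ND and 3680.1 to 4415 in WT HFD. It gave 5088 to 8700.3 in null ND and 2185 to 2729.7 in null HFD. The sums and Scd1 alone thus had the same order, with the null groups on either side of the overlapping WT groups. A sum without Scd1 was not examined. Fasn, the fatty acid synthase, had -0.68 ± 0.430 (unadjusted p = 0.137 in edgeR), Acaca, acetyl-CoA carboxylase, -0.31 ± 0.265, and the regulator Srebf1 0.31 ± 0.333. The list's median was -0.205 without WT HFD 3, -0.216 without null ND 1, -0.242 without null ND 3 and -0.585 without null ND 2.

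In the list of PPAR-alpha targets and fatty acid oxidation, 34 of 44 genes were below 0, with a median of -0.29, which was -0.174 without WT ND 1 and -0.191 without either WT HFD 3 or null ND 2. At an unadjusted p under 0.05 there were 4 below 0 (9.09% against 1.55% of all genes) and 0 above (against 1.34%). The 4 were Fgf21, the omega-hydroxylase Cyp4a32 (-1.05 ± 0.401), Eci2 (-0.75 ± 0.321) and the fatty acid binding protein Fabp1 (-0.98 ± 0.454). Fabp1 stood at 3458, 2652.5 and 3858 CPM in WT ND, 5862, 5774 and 4434 in WT HFD, 4073, 8441 and 8985 in null ND, and 5108, 8605 and 3821 in null HFD. The null libraries with the high values, null ND 2, null ND 3 and null HFD 2, are those on the one side of the leading axis described above. WT ND 1 (3458 CPM) and WT HFD 1 (5862 CPM) also lay on that side. The axis was drawn from these same libraries, and its part in the list's values was not tested. Cpt1a, the carnitine transferase of fatty acid entry into mitochondria, had -0.45 ± 0.336.

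Desaturases, elongases and PUFA metabolism showed no common direction, with 17 of 34 genes above 0, 17 below and a median of -0.0033, which ran from -0.129 to 0.126 over the libraries left out in turn. Beside Scd1, those below 0 at an unadjusted p under 0.05 were Fads3 (-1.04 ± 0.413) and the elongase Elovl5 (-0.72 ± 0.304). Those above were Cyp2c39, an epoxygenase (1.26 ± 0.524), and Lta4h, the leukotriene A4 hydrolase (0.75 ± 0.337). The shares with Scd1 were 8.82% below (1.55% of all genes) and 5.88% above (1.34% of all genes). The rate-limiting desaturases of PUFA synthesis had intervals that included 0: Fads1 -0.31 (95% interval -0.83 to 0.20) and Fads2 -0.09 (-1.75 to 1.56). Cholesterol synthesis and uptake had 22 of 26 genes below 0 and a median of -0.32, with 0 at an unadjusted p under 0.05 in either direction. Its median ran from -0.76 without null HFD 1 to -0.08 without null HFD 3, and leaving out any of 6 others also moved it by over 1.5 times.

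Lists with most genes above 0 included those of CAR and PXR targets and of amino acid catabolism, and others are given below. Of 41 CAR and PXR targets, 33 were above 0, with a median of 0.24. At an unadjusted p under 0.05 were Cyp3a59 (1.14 ± 0.436), Cyp3a25 (0.68 ± 0.317) and Cyp3a16 (2.40 ± 1.07) above 0 (7.32% against 1.34% of all genes). The stress gene Gadd45b was below 0 at that level (-2.38 ± 0.902, 2.44% against 1.55%). The 3 Cyp3a genes are close paralogues. Without WT ND 1, in which Cyp3a59 stood at 183 CPM against 71.9 and 73.1 in the other WT ND libraries, Cyp3a59 was 0.55 and Cyp3a25 0.36. Cyp3a16 varied within WT ND from 8.40 to 117 CPM and was 1.51 without WT ND 2. Amino acid catabolism and the urea cycle had 32 of 38 above 0 and a median of 0.26. Nags, which makes the activator of urea synthesis, was the one gene at an unadjusted p under 0.05 (0.84 ± 0.335, 2.63% against 1.34%). Without null ND 1 these medians were 0.42 and 0.52. That of the CAR and PXR targets was 0.133 without WT ND 2 and 0.358 without WT ND 3, and that of amino acid catabolism was 0.125 without WT ND 2, 0.17 without WT HFD 2 and 0.111 without null ND 3.

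Insulin, FOXO1 and glucose genes had 23 of 31 below 0 and a median of -0.32, which was -0.165 without WT ND 3 and -0.161 without WT HFD 3. Below 0 at an unadjusted p under 0.05 were Txnip, the glycogen synthase Gys2 (-1.19 ± 0.405), the insulin receptor substrate Irs2 (-2.97 ± 1.26) and Ppp1r3g (-5.52 ± 2.36), 12.9% against 1.55% of all genes. Ppp1r3b was above 0 at that level (3.23% against 1.34%). Ppp1r3g, another glycogen-targeting subunit, switched between libraries of a group: it stood at 5.02, 2.50 and 89.0 CPM in WT HFD and at 1.96, 71.2 and 1.51 CPM in null HFD, against 0.463 to 3.99 in WT ND and 60.7 to 109.1 in null ND. Irs2 stood at 4.63, 17.5 and 82.4 CPM in WT HFD. Both were thus highest, within WT HFD, in WT HFD 3. Without it the interactions were -1.31 for Irs2 and -2.46 for Ppp1r3g, and the latter was -9.29 without null HFD 2.

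Clock genes were read as core and output lists. Of 17 core genes, 10 were below 0, with a median of -0.14 (-0.0054 without WT HFD 3, and -0.236 to -0.266 without WT ND 2, WT HFD 1 or null HFD 3). Nr1d1 (-0.99 ± 0.362) and Per3 (-1.19 ± 0.543) were below 0 at an unadjusted p under 0.05 (11.8% against 1.55%). Arntl, the activator BMAL1, had 1.48 ± 1.06, Per1 -1.09 ± 1.07 and Per2 0.94 ± 0.582, none of which reached that level. Of 16 output genes, 10 were below 0, among them Rgs16 and Dbp (12.5% against 1.55%), and the median of -0.53 was 0.15 without WT HFD 3 and -0.28 without null HFD 3. Immediate early genes, which respond within minutes to growth factors and to handling, had 19 of 20 below 0 and a median of -1.13, the lowest of the lists shown, yet 0 of them reached an unadjusted p of 0.05. Their summed level was 562 to 1434 CPM in WT ND, 284 to 2779 in WT HFD, 2579 to 3579 in null ND and 415 to 2993 in null HFD. The list's median was -0.06 without WT HFD 3 and -1.83 without null HFD 2.

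Of 36 female-biased liver genes, 30 were above 0, with a median of 0.22, which was 0.374 without WT ND 1 and 0.333 without null HFD 3. At an unadjusted p under 0.05 were 5 above 0 (13.9% against 1.34%). These were Prom1, the fatty acid transporter Cd36 (1.36 ± 0.507), Cyp2c39, the steroid hydroxylase Cyp17a1 (1.19 ± 0.5, and 0.73 without WT ND 2) and Cyp3a16. Cyp2a4 was below 0 at that level (2.78% against 1.55%). Cd36 stood at 83.1 to 88.9 CPM in WT ND, 28.2, 48.7 and 69.7 in WT HFD, 58.6 to 60.6 in null ND and 37.96, 113 and 107 in null HFD. Male-biased genes had 13 of 20 below 0 and a median of -0.40, which was -0.06 without null ND 3 and -0.13 without WT HFD 1. The major urinary protein Mup3 (-0.95 ± 0.367) and Egfr (-1.61 ± 0.644) were below 0 at that level (10% against 1.55%).

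**Figure D5:**
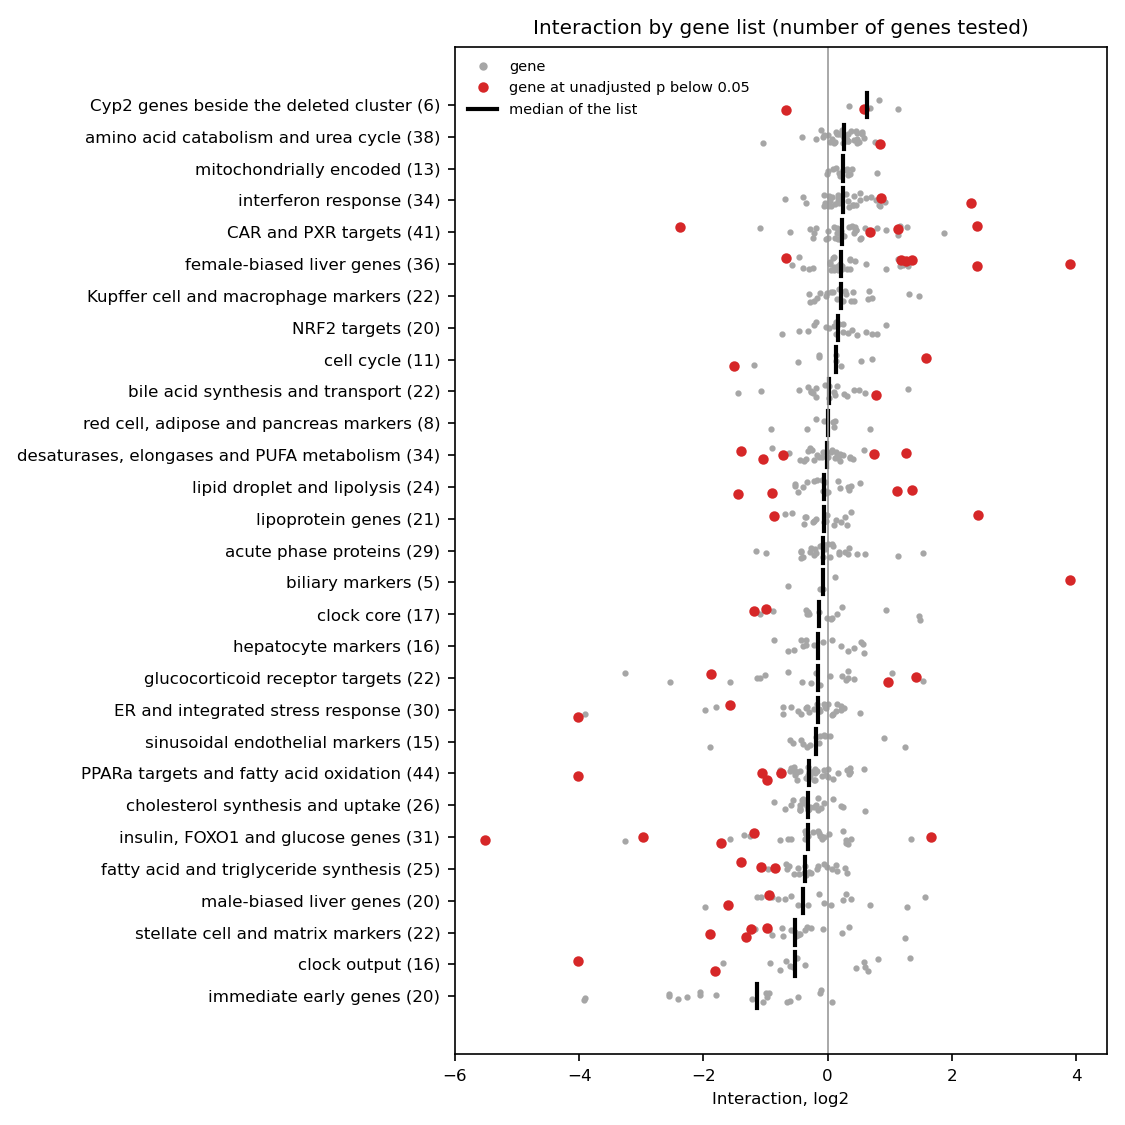
Interaction (log2, horizontal axis) of each tested gene in 29 lists, with a bar at the list's median and red points at an unadjusted p below 0.05; the number tested is in brackets. Immediate early genes have the lowest median (-1.13) with no red point, and the list of lymphocyte and neutrophil markers, with 1 gene tested, is not drawn.

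Cyp2 genes beside the deleted cluster on chromosome 7 had 5 of 6 tested genes above 0 and a median of 0.64, which was 0.41 without WT ND 1. Cyp2a12 (0.59 ± 0.260) was above 0 and Cyp2a4 below 0 at an unadjusted p under 0.05. That is 16.7% each way, against 1.34% above 0 and 1.55% below 0 over all genes. Bile acid genes had 12 of 22 above 0 and a median of 0.02 (-0.02 to 0.15 over the libraries left out). Akr1d1, the steroid 5-beta-reductase, was above 0 at that level (0.77 ± 0.316, 4.55% against 1.34%). Cyp7a1, the rate-limiting enzyme of bile acid synthesis, was at -0.18 ± 0.956. Lipid droplet and lipolysis genes had 9 of 24 above 0 and a median of -0.05 (-0.15 to 0.05 over the libraries left out). The droplet coat gene Plin2 (-0.89 ± 0.287) and Nceh1 were below 0 at an unadjusted p under 0.05 (8.33% against 1.55%). The lipase inhibitor G0s2 (1.11 ± 0.401) and Cd36 were above 0 at that level (8.33% against 1.34%).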

How the data were processed

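The authors deposited unnormalized read counts, 1 row per gene symbol. FastQC, Trimmomatic, GSNAP, Subread and edgeR are named in no stated order, with build GRCm38.p5, per the submitters' processing notes. No source used here gives their settings. Of 46095 rows, 27 had symbols turned into dates (0.116% to 0.153% of counts); they stayed in the totals and were not tested. Genes were filtered by filterByExpr, scaled by TMM and fitted with edgeR 4.0.16 under R 4.3.3. Each of the 4 groups had a term, and the 12 libraries share 1 estimate of the spread (square root of the common dispersion 0.269, or 0.211 with the library-side term). P-values of the robust quasi-likelihood test were adjusted by Benjamini-Hochberg over 11830 genes, with calls made below 0.05. Levels (CPM) use TMM factors, and intervals are 95%. The pipeline was tested on simulated data. Named genes were the deleted genes, the 12 with the smallest p in each direction (average log2 CPM of at least 1, no predicted or clone names), genes called in a simple effect, and leading list members below an unadjusted p of 0.05. Other names (8430408G22Rik, Gm15441, Sphk2, B930025P03Rik, and list members given as background) were chosen after their values were seen. Members and lists were chosen with earlier results of these data known. The alternatives tried were DESeq2 1.42.0, limma 3.58.1, RLE scaling, no filter, a replicate block, leaving out each library, and the library-side term. Coordinates are from GENCODE (GRCm38). Every pair of libraries differed by more than sampling noise (chi-square over degrees of freedom at least 5.57).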

Additional observations from a re-analysis of the deposited data

How the results depend on the processing

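The count of called genes was 0 in edgeR with RLE scaling, in limma voom and with the replicate block, 23 without the filter on low counts, 11 in DESeq2 and 2 with the library-side term, which was added after seeing the data; it ran from 0 to 1 over the libraries left out in turn, the 1 being Angptl8 without WT HFD 1. Without the filter the number of genes tested was 24203; the cause of these differences was not tested. The count at an unadjusted p below 0.05, 342, was 775 without the filter, 865 in limma voom, 348 with RLE scaling, 295 in DESeq2 and 510 with the library-side term, and ran from 272 to 575 over the libraries left out, with 575 without WT ND 1 and 546 without null ND 1. With the replicate number as a block it was 323. Same-numbered libraries deviated together in every pair (r = 0.139 to 0.564) only between WT ND and WT HFD. Between null ND and null HFD r was 0.356, 0.312 and -0.129 for numbers 1, 2 and 3. Of the 12 libraries, 6 correlated best with their own number. These values do not establish a pairing by number, and they cannot exclude one within a genotype. No named gene turned direction under any alternative run. Medians that did were those of clock output (0.15 without WT HFD 3), mitochondrially encoded genes (-0.48 without WT ND 1), interferon response (down to -0.13) and Kupffer cell markers (down to -0.105). Those of cell cycle genes (down to -0.257), NRF2 targets (down to -0.015), glucocorticoid receptor targets (up to 0.184) and stress response genes (up to 0.063) also did, among others with medians nearer 0. Depth limits low genes most: the median 95% half-width was 2.26 at an average log2 CPM under 2.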

Other observations

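Genes of non-hepatocyte cells were read in the same fit, as values with no explanation. Stellate cell and matrix markers had 19 of 22 tested genes below 0 and a median of -0.52, within -0.70 to -0.39 over the libraries left out. Those below 0 at an unadjusted p under 0.05 in edgeR were the fibril-associated collagen Col14a1 (-0.98 ± 0.348), Col3a1 (-1.24 ± 0.518), the smooth muscle gene Tagln (-1.31 ± 0.555) and the intermediate filament gene Des (-1.89 ± 0.834, and -1.03 without WT HFD 3), 18.2% of the list against 1.55% of all genes. The 3 genes above 0 were Lrat (1.25 ± 0.655), Mmp2 (0.353 ± 0.881) and Acta2 (0.24 ± 1.39), and none of them reached that level. Dcn was at -0.07 ± 0.326. Col14a1 stood at 27.4 to 32.8 CPM in WT ND, 33.6, 60.8 and 48.2 in WT HFD, 49.1, 31.9 and 44.1 in null ND and 37.96, 26.4 and 33.9 in null HFD, so the groups overlapped except WT ND, which lay below WT HFD. The list's summed level was 609 to 718 CPM in WT ND, 663 to 885 in WT HFD, 623 to 779.6 in null ND and 563 to 637 in null HFD. In bulk liver, fewer cells of a type and less RNA per cell cannot be told apart. Sinusoidal endothelial markers had 12 of 15 below 0 and a median of -0.19 (-0.44 to -0.03 over the libraries left out), with 0 at that level. Of the lymphocyte and neutrophil markers only Ptprc was tested, at -0.54 ± 0.557.

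Interferon response genes had 28 of 34 above 0 and a median of 0.25, which ran from -0.13 without null HFD 3 to 0.51 without WT HFD 2, with diet medians of 0.56 in WT and 0.86 in the null. Irf1, a transcription factor (0.85 ± 0.310), and Psmb9, an immunoproteasome subunit (2.31 ± 0.866), were above 0 at an unadjusted p under 0.05 in edgeR (5.88% against 1.34%). Kupffer cell and macrophage markers had 15 of 22 above 0, a median of 0.22 (-0.105 without WT ND 3, -0.051 without WT HFD 1, -0.093 without null HFD 3 and up to 0.504 without WT HFD 2) and 0 at that level, with diet medians of 0.66 in WT and 0.81 in the null. Their summed level was 393 to 737 CPM in WT ND, 609 to 1184 in WT HFD, 476 to 653 in null ND and 752 to 1568 in null HFD. Mitochondrially encoded genes had 12 of 13 above 0 and a median of 0.25, which was -0.48 without WT ND 1, the library in which they took the largest share of counts, -0.17 without null HFD 2 and up to 0.70 without WT HFD 1. The medians of the lists that follow moved by over 1.5 times with several single libraries. NRF2 targets had 14 of 20 above 0 (median 0.16), acute phase proteins 13 of 29 (-0.07), lipoprotein genes 7 of 21 (-0.06), stress response genes 9 of 30 (-0.16) and cell cycle genes 6 of 11 (0.13). Over the libraries left out, these medians ran from -0.015 to 0.301 for NRF2 targets and from -0.178 to 0.069 for acute phase proteins. The ranges were -0.248 to -0.008 for lipoprotein genes, -0.443 to 0.063 for stress response genes and -0.257 to 0.273 for cell cycle genes. At an unadjusted p under 0.05, the lipoprotein list had Angptl8 above 0 and Apoa5 (-0.87 ± 0.340) below, 4.76% each. The stress list had Fgf21 and Ppp1r15a (-1.57 ± 0.504) below 0, 6.67%. The cell cycle list had Cdkn2c at 1.59 ± 0.611 and Ccne2 at -1.50 ± 0.651, 9.09% each. Over all genes the shares were 1.34% above 0 and 1.55% below.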
